A study of Mus musculus with 2 samples.

Results

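Chromosome M, the mitochondrial genome, and its nuclear copy on chromosome 1 were taken as 486 bins of 50 bp from 2 ChIP-seq libraries of TBP in mouse embryonic stem cells, out of 52614649 such bins in build mm8. Of these, 326 bins covered all of chromosome M (the last bin is 1 base shorter), and 160 covered a window of 8 kb on chromosome 1 around the copy at chr1:24565806-24569595. The members were chosen by position, after earlier results of these data had shown reads gathered there. The read numbers that drew attention to them are therefore given as a description, with no test. Reads were counted by their 5′ ends, by strand, and separately for reads that the aligner placed at 1 position and reads that it placed at 2. A read counted once per position and strand is called distinct, and RPM is the usual scaling of reads to 1e6 reads with 1 alignment in the library (of distinct reads to distinct reads, where so named).

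TBP, the TATA-binding protein, is a subunit of the general transcription machinery of the nucleus. The mitochondrial genome is a circle present in many copies per cell, and it is transcribed by its own polymerase, POLRMT, with the factors TFAM and TFB2M. Stretches of it have been inserted into nuclear chromosomes in the course of evolution, so a short read can match both the mitochondrial genome and such a copy. The RefSeq gene table of another assembly, GRCm38.p6, lists 37 mitochondrial genes, made up of 13 protein-coding, 2 ribosomal RNA and 22 transfer RNA genes. Its coordinates belong to that assembly, so bins are named by mm8 position here and were assigned to no gene.

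Both libraries belong to 1 group: V6.5 cells, a C57BL/6-129 line, with chromatin precipitated by the Abcam antibody AB818 against TBP. Cells had been off feeder fibroblasts for 2 passages before library B2 and for 1 passage before library B6, and the gel cut had an upper end of 350 bp for B2 and 300 bp for B6. Reads were 36 bases long in B2 and 26 in B6. Whether the cultures were separate is not given in the labels, so the spread between the libraries may be technical. Input DNA or a mock precipitation was not analysed here. Without such a control, the numbers below describe reads recovered with the TBP antibody and cannot be read as TBP bound to mitochondrial DNA.

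B2 held 16848742 reads with 1 alignment and B6 held 3106240. On chromosome M, B2 had 17137 such reads, 0.102% of its total (95% Wilson interval 0.1002 to 0.1032), and B6 had 6247, 0.201% (0.196 to 0.206). These intervals hold counting error alone, because amplified reads that carry no molecular identifier may repeat 1 molecule. As distinct reads the share came to 0.0548% for B2 and 0.151% for B6. The order of the libraries was the same by both measures, with B6 higher.

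Slightly more mitochondrial reads had 2 alignments than had 1. Chromosome M held 17649 reads with 2 alignments in B2 and 7019 in B6, which was 50.7% (50.2 to 51.3) and 52.9% (52.1 to 53.8) of all its listed reads. Among all reads with 2 alignments in each library, chromosome M held 1.46% in B2 and 1.62% in B6. The authors' alignment settings removed reads that matched more than 2 places, so a stretch of chromosome M with several nuclear copies can be without reads for that reason alone.

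The bins fell into stretches that were read in different ways. With the distinct ends of both libraries added up, a bin was called single-copy where under 10% of them had 2 alignments, copied where over 90% did, and nearly empty where there were under 5 ends in all. Of the 326 bins, 83 (25.5%) were single-copy, 115 (35.3%) were copied, 114 (35.0%) were mixed and 14 (4.29%) were nearly empty. The longest single-copy run was M:201-1500, with 1527 distinct ends of 1 alignment in B2 and 767 in B6. The longest copied run was M:7401-11000, where only 1 distinct end in B2 and 11 in B6 had 1 alignment, against 4145 and 1974 with 2. Most nearly empty bins lay between bases 6701 and 7400.

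**Figure D1:**
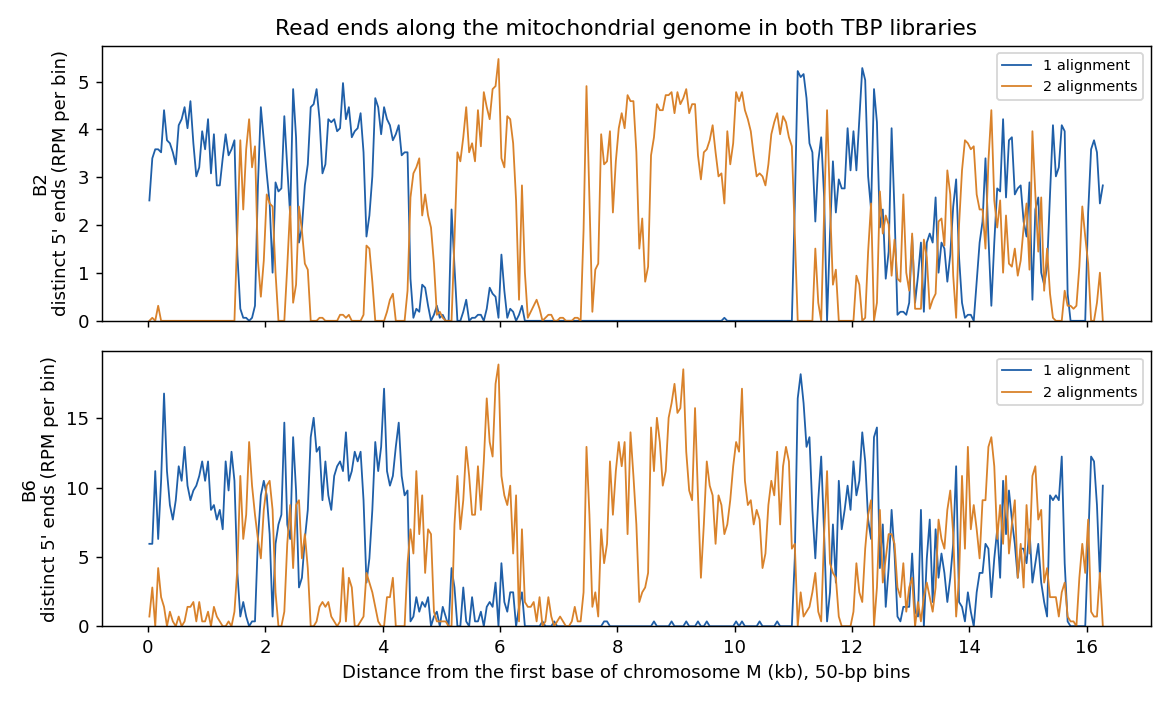
Distinct 5′ ends per 50-bp bin (y axis, RPM of distinct reads) along chromosome M (x axis, kb from its first base) in B2 (top) and B6 (bottom), for reads with 1 alignment (blue) and with 2 (orange). The blue line lies at or near 0 from about 7.4 to 11 kb in both libraries, where the orange line is high, and the y axes differ between the libraries.

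Bins without any read of 1 alignment formed longer runs in B2, the library with longer reads and greater depth. B2 had 108 such bins, 5400 bp in all, with a longest run of 3400 bp. B6 had 97, or 4850 bp, but its longest run was only 800 bp. The libraries shared 93 of these bins (4650 bp), and all but 3 of them held reads with 2 alignments. An empty bin in the list of reads with 1 alignment was thus mostly a bin whose reads stood in the other list. Some, however, held few reads in either list. Over both libraries, distinct ends with 2 alignments came to 61 in the 6 bins of M:6401-6700 and 14 in the 3 bins of M:6751-6900. The median copied bin had 58 such ends in B2 and 25 in B6.

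Each of the 83 single-copy bins held reads with 1 alignment in both libraries. This follows in part from the rule, since bins with under 5 ends were called nearly empty. Whether other places that could be read were without reads was not tested. By all reads, the highest bin stood 2.23 times over the median in B2 and 1.87 times in B6. Over the 83 single-copy bins, B2 had 26 to 84 distinct ends per bin with a median of 61, and B6 had 12 to 52 with a median of 32. The highest single-copy bin was 1.38 times the median in B2 and 1.63 times in B6. By distinct ends, none of the 83 bins reached 2-fold over the median in either library (0.0% in each). A bin of 50 bp can hold at most 1 distinct end per base and strand. In B2 this cap lies under 2-fold over the median of 61, so its value was fixed in advance. By all reads, 3 adjacent bins did in B2 (3.61%) and 0 in B6 (0.0%). These bins, from M:11101 to M:11250, held 232, 244 and 248 reads in B2 against a median of 111, and 84, 73 and 69 in B6 against a median of 45. These counts are of bins on chromosome M itself, and no test against the nuclear genome was made for them. The variance over bins was 2.02 times the mean in B2 and 1.75 times in B6 for distinct ends. It was 12.6 and 4.14 times for all reads, where pure counting error gives 1. For distinct ends pure counting error gives less than 1, because of the cap.

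Of the 5 single-copy bins with the highest mean RPM of distinct reads over the libraries, 3 were neighbours. M:11101-11150 had 81 distinct ends in B2 and 52 in B6, which is 5.10 and 18.2 RPM of distinct reads (mean 11.6 ± 9.25, SD, n = 2). M:11051-11100 had 83 and 47, and M:11151-11200 had 82 and 46. These bins lie directly beyond the end of the long copied run. Elsewhere M:4001-4050 had 71 and 49, and M:251-300 had 70 and 48. All these bins were above the median of 61 in B2 and of 32 in B6, which follows in part from their choice as the highest.

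By mean RPM of distinct reads over the libraries, the lowest single-copy bin was M:5151-5200, with 37 distinct ends in B2 and 12 in B6. It followed a pair of nearly empty bins, M:5051-5150, which held 0 ends of either class in B2 and 3 in B6 (2 with 1 alignment and 1 with 2). M:1-50 had 40 and 17 ends, of which 31 and 14 were on the plus strand. A minus-strand read that starts this close to the first base would run off the end of the linear reference, so the few minus-strand ends there follow from the numbering of a circular genome. M:13151-13200 was the lowest single-copy bin of B2 with 26 ends, and in B6, with 24, only 8 single-copy bins were lower. M:2201-2250 had 43 and 21.

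The relative height of the bins was shared by the libraries, less closely where only single-copy bins were compared. Over the 233 bins with a read of 1 alignment, log2 RPM of distinct reads had r = 0.94 and rho = 0.94 between B2 and B6. Restricted to the 83 single-copy bins, r was 0.73 and rho 0.74. Over the 292 bins with reads of 2 alignments, r was 0.89 and rho 0.89. These values describe bins along 1 molecule, which share base composition, mappability and the same antibody, and are not independent.

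Counting every bin with a read of 1 alignment, 1 of 233 (0.429%) was at least 2-fold over the median in B2 and 25 (10.7%) were in B6. The bin high in both was M:12151-12200, with 84 distinct ends in B2 and 40 in B6. The median over these 233 bins includes many that are low because their reads have 2 alignments. Among the 83 single-copy bins M:12151-12200 was the highest in B2 and had 8 bins above it in B6, and it was under 2-fold over their median in both. In B2 the cap on distinct ends allowed no other outcome. In the list of reads with 2 alignments, 76 of 292 bins (26.0%) were 2-fold over the median in B2 and 56 (19.2%) in B6, and 47 were in both, which is 61.8% of the bins of B2 and 83.9% of those of B6. The highest of these was M:5951-6000, with 87 distinct ends in B2 and 54 in B6.

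The minus strand held slightly more ends than the plus strand. The plus strand held 48.4% (47.4 to 49.5) of the distinct ends with 1 alignment in B2, 46.6% (45.1 to 48.1) of those in B6, and 46.9% and 44.9% of all such reads. The share varied more from bin to bin than between the libraries. Over the 111 bins with at least 20 ends in each library it ran from 11.5% to 75.0% in B2 and from 15.0% to 76.7% in B6, with r = 0.72 between them. M:12101-12150 had 65.7% of its ends on the plus strand in B2 and 76.7% in B6, whereas M:13151-13200 had 11.5% and 29.2%. In each case the same strand was favoured in both libraries among ends with 1 alignment. Ends with 2 alignments, left out here, were 0 plus and 12 minus for M:12101-12150 in B2, and 1 and 6 in B6. For M:13151-13200 they were 3 plus and 1 minus in B2, and 0 and 1 in B6, and this bin lies beside the copied bin M:13201-13250. Whether the shares follow from reads of 1 strand being listed elsewhere or removed was not tested.

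At a factor's binding site, plus-strand and minus-strand ends lie apart by about the length of the DNA fragment, and this spacing was compared between chromosome M and a nuclear chromosome. On chromosome 19 plus and minus ends coincided most often at a distance of 100 bp in B2 and 88 bp in B6. On chromosome 1 the distances were 97 and 75 bp. On chromosome M they were 35 and 24 bp, close to the read length in each library. From 40 bp upwards, the highest number of coincidences on chromosome M was 1.41 times that at 300 bp in B2 and 1.37 times in B6, against 1.78 and 3.21 times on chromosome 19. These maxima on chromosome M lay at 40 bp in B2, the edge of the range and beside the read-length maximum, and at 63 bp in B6, so the ratios do not compare like distances. Chromosome M was also far more densely filled. Its single-copy bins had 1201 distinct ends per kb in B2 and 632 in B6, against 6.04 and 1.09 on the nuclear chromosomes. Ends this dense coincide often at any distance, which flattens a maximum. The values therefore cannot show whether ends on chromosome M have the spacing of binding sites, and the difference in spacing was not tested.

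Duplicate reads made up more of the mitochondrial list than of the library. Of the reads with 1 alignment on chromosome M, 49.2% in B2 and 31.0% in B6 repeated a position and strand already taken, against 5.65% and 7.91% in all of each library. Much of this goes with the number of reads on so short a sequence. In the single-copy bins, the same reads spread evenly over all 8298 signed positions would give 40.8% duplicates in B2 and 20.2% in B6, and the measured values were 48.3% and 32.9%. Distinct ends filled 60.1% of these positions in B2 and 31.6% in B6, so counts of distinct reads in B2 were nearer to their ceiling. How much of the duplicate share comes from PCR was not tested.

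The difference between the libraries was larger for distinct reads than for all reads. In 1-kb windows, distinct RPM in B6 was 2.29 to 5.68 times that in B2 over 13 windows of chromosome M, with a median of 2.73, and 13 of 13 windows were past 2-fold, where 13.4% of 605550 nuclear windows were and the nuclear median was 0.855. With all reads kept, the range was 1.45 to 3.53, the median 2.06 and 7 of 13 windows were past 2-fold, against 14.3% of nuclear windows. B6 was higher in every one of the 13 windows by both measures. These windows divide 1 molecule, with 1 library on each side, so they are not replicates. They restate the difference in mitochondrial share, which was known when the region was chosen. Distinct counts in B2 were nearer to their ceiling, and how far this raised the ratio of distinct reads was not tested. The ratio of 5.68 belongs to M:6001-7000, which held only 47 distinct ends in B2 and 48 in B6. Passages off feeders, gel cut, read length and depth all differ between the libraries and cannot be told apart.

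A few 5′ ends were stacked far above the rest. The highest, by mean RPM over both libraries and both lists, was base 16033 on the minus strand, with 54 reads in B2 and 11 in B6 (3.20 and 3.54 RPM). The average minus-strand end of chromosome M had 1.14 reads in B2 and 0.432 in B6. Since the read lengths differ, the left ends of these reads differ too, and it is the 5′ base that the libraries share. In B2 the neighbouring bases 16032 and 16034 had 21 and 6 minus-strand reads, and in B6 they had 2 and 1. Within 51 bases around it, minus-strand reads outnumbered plus-strand reads by 197 to 61 in B2 and by 65 to 25 in B6. This end lies in the part of the numbering just before the circle closes, where the noncoding control region, with the free 5′ ends of the short nascent strand of its displacement loop, is found in mammals. The reads at this base all had 2 alignments, and the search for nuclear partners described below gave a different best chromosome for its window in each library, so none was accepted.

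**Figure D2:**
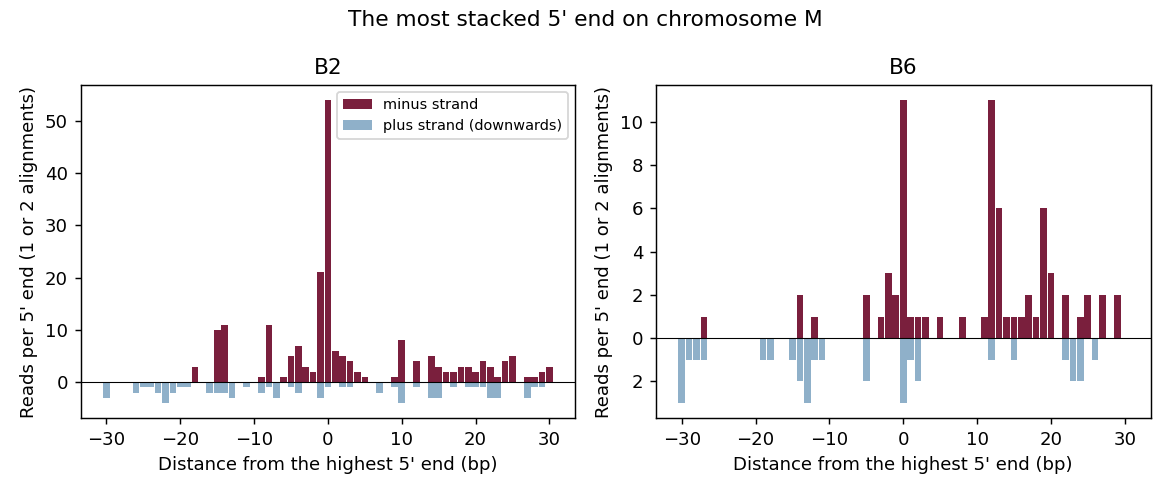
Reads per 5′ end (y axis; minus strand upwards, plus strand downwards; 1 or 2 alignments) against the distance in bp from the most stacked end on chromosome M (x axis), in B2 (left) and B6 (right). The end at distance 0 holds 54 reads in B2 and 11 in B6, and in B6 a second end 12 bases further on also holds 11.

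Among the other stacked ends, base 2066 on the minus strand was high in both libraries, with 10 reads in B2 and 8 in B6. Several others were high in 1 library. Base 1733 on the plus strand had 15 reads in B6 and 4 in B2, base 15464 on the minus strand had 12 in B6 and 0 in B2, and base 16045 on the minus strand had 11 in B6 and 4 in B2. In B2 the highest end with 1 alignment was base 11675 on the minus strand with 15 reads, where B6 had 1. Ends with 10 or more reads numbered 10 in B2 and 3 in B6 among reads with 1 alignment, and 15 and 4 among reads with 2.

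The second alignments of the mitochondrial reads led to 6 nuclear copies. For each of 41 windows of 300 bp with at least 20 positions in each library, the partner was the nuclear chromosome, orientation and offset that matched most of its positions. In 27 windows the libraries gave the same chromosome and orientation, and the same offset within 1 bp. A high match in 1 library was not enough. The window M:3601-3900 matched chromosome 17 at 64 of 64 positions in B2, inverted, but on the same strand at 28 of 35 in B6, and was not accepted. Each copy was then extended over the bins in which at least 80% of positions matched, so the common offset follows from the rule, and the shares matched within the copies below are high in part by construction. This assigned 7962 of 8998 distinct positions in B2 (88.5%) and 3996 of 4933 in B6 (81.0%). The copies together matched 8714 bp, or 53.5% of chromosome M.

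Spans are printed over both libraries together, and matches are counted over the span of each library. The stretch M:7258-11046 matched chr1:24565806-24569595 in inverted orientation, with 2 offsets that differ by 1 bp. In B2 it began at M:7409 and matched at 4173 of 4173 positions. In B6 it began at M:7258 and matched at 1996 of 1997. M:4451-6422 matched chr2:22440200-22442171, inverted, at 99.9% of positions in B2 and 99.5% in B6. M:13419-15235 matched chr4:79474494-79476310 on the same strand, at 99.9% and 99.2%. The shorter copies were M:1509-1883 on chr10:95507211-95507585, inverted, M:12444-12925 on chr13:85600146-85600627, inverted, and M:12070-12348 on chromosome 18, on the same strand. The match was lowest for the copy on chromosome 13, at 95.5% of positions in B2 and 83.5% in B6.

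**Figure D3:**
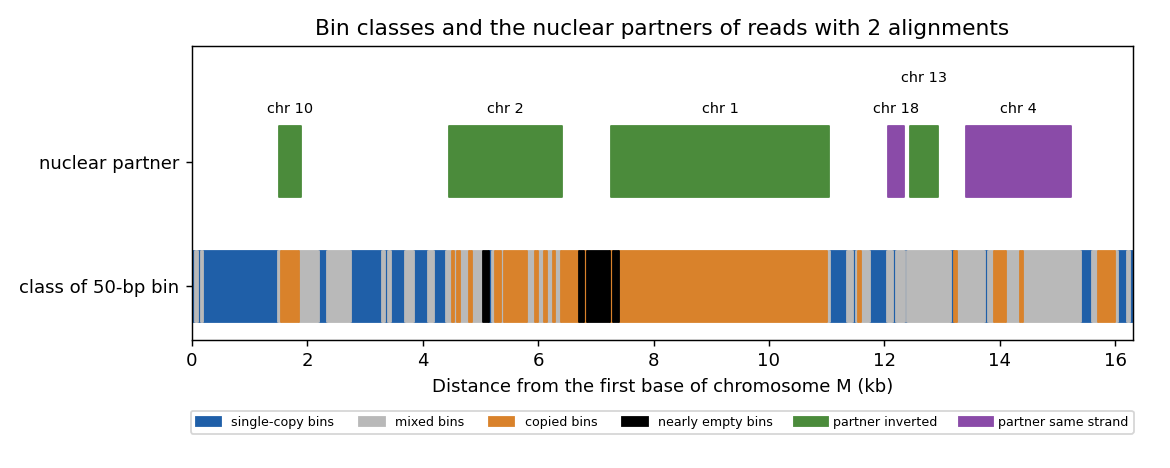
The class of each 50-bp bin (lower row) and the stretches with a nuclear partner (upper row) along chromosome M (x axis, kb from its first base); green marks an inverted partner and purple one on the same strand. The 6 stretches cover 53.5% of chromosome M, and the longest, with its partner on chromosome 1, lies over the longest run of copied bins.

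The copies differed in how completely they masked the mitochondrial genome. Over the stretch copied on chromosome 1, reads with 2 alignments came to 2156 per kb in B2 and 755 in B6, and reads with 1 alignment on chromosome M to only 17.2 and 8.71 per kb. The stretch copied on chromosome 2 had 1821 and 654 per kb with 2 alignments against 162 and 89.8 with 1, and that on chromosome 10 had 1789 and 736 against 259 and 69.3. Over the stretch copied on chromosome 4 the values were 1345 and 615 per kb with 2 alignments, and 1172 and 359 with 1. Over the stretch copied on chromosome 18, reads with 1 alignment, at 2724 and 810 per kb, exceeded those with 2, at 627 and 412. Reads with 2 alignments were 99.2% of the reads in B2 and 98.9% in B6 over the chromosome 1 stretch, 91.8% and 87.9% over the chromosome 2 stretch, and 87.4% and 91.4% over the chromosome 10 stretch.

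In the chromosome 1 window, 4205 of 4206 distinct positions with 2 alignments in B2 and 2029 of 2031 in B6 had their partner on chromosome M at the mirrored position within 1 bp. At exactly 1 offset, 87.5% of positions matched in B2 and 78.5% in B6, where the best unrelated offset matched 65.4% and 35.1% exactly. No unrelated offset was counted within 1 bp, so the matches within 1 bp have no like baseline. The strands were swapped as an inversion requires: chromosome 1 had 2144 plus-strand and 2032 minus-strand positions in B2 where chromosome M had 2032 and 2144. In B6 chromosome 1 had 1039 and 958, and chromosome M 957 and 1040.

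The copy as delimited above had few reads on either side, although part of its right side still kept the match. In the 2805 bp on its left side B2 had 10 reads with 1 alignment and B6 had 0. In the 1405 bp on its right side there were 0 such reads in both, and 32 reads with 2 alignments in B2 and 40 in B6. These right-hand reads also kept the mirror, at 29 of 29 distinct positions in B2 and 33 of 34 in B6, and carried the match out to chr1:24570405 and M:6448. Over the 4600 bp from end to end the chromosome 1 sequence was 1 base longer than the 4599 bp of chromosome M. On chromosome M, the bases from 6423 to 7257 between the chromosome 2 and chromosome 1 stretches had only 38.3 reads per kb of either list in B2 and 50.3 in B6, against 2330 and 998 in single-copy bins. Whether reads there had been dropped for having more than 2 alignments was not tested.

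**Figure D4:**
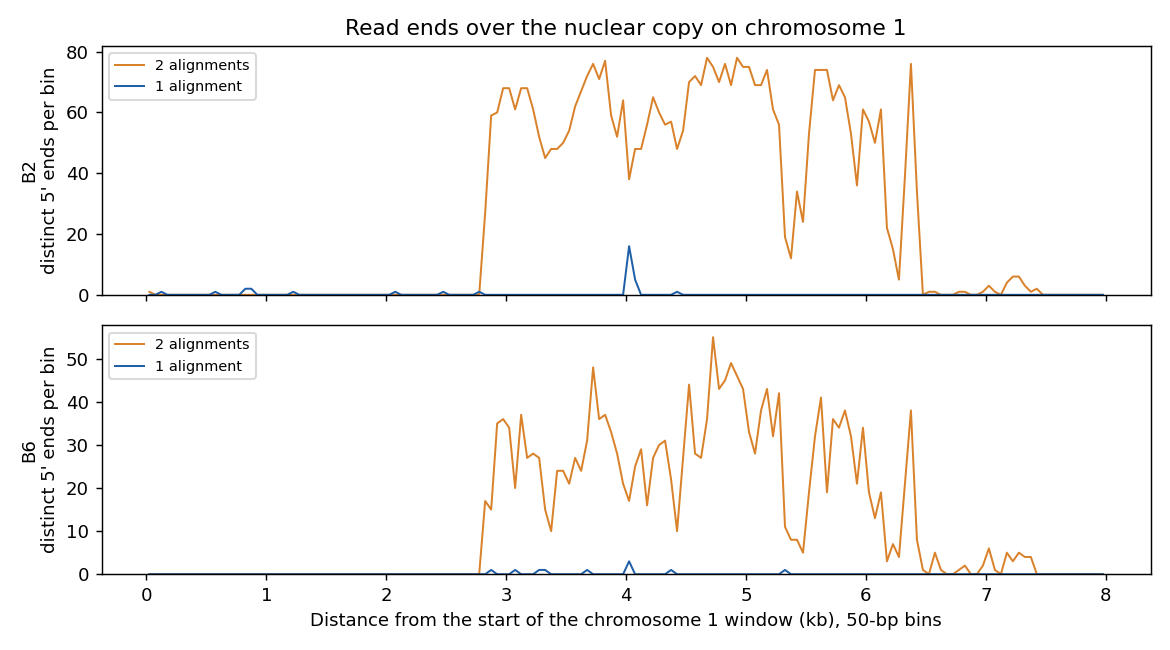
Distinct 5′ ends per 50-bp bin (y axis) along the 8-kb window of chromosome 1 (x axis, kb from its start) in B2 (top) and B6 (bottom), for reads with 2 alignments (orange) and 1 alignment (blue). The orange line rises from 0 at about 2.8 kb and reaches 78 in B2 and 55 in B6, while the blue line has 1 clearly raised place in B2, at about 4 kb, and stays at 3 or below in B6.

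Within the copy, bins had a median of 61 distinct ends with 2 alignments in B2 and 27.5 in B6, over 74 bins with r = 0.90 between the libraries. The density of the stretch was below that of single-copy mitochondrial bins. Distinct ends came to 1102 per kb against 1201 in B2, a ratio of 0.918, and to 527 against 632 in B6, a ratio of 0.834. For all reads the ratios were 0.929 and 0.803. The stretch M:7258-11046 includes nearly empty bins, which the single-copy set leaves out by rule, and in B2 the match began only at M:7409. The 2 densities are therefore not over like places, and how far this lowers the ratios was not tested. Nuclear chromosomes averaged 6.04 distinct ends per kb in B2 and 1.09 in B6. Reads with 2 alignments are listed at both places, so these values do not say which of the places a read came from. Scaled to the library, the copy held 69.3 RPM per kb in B2 and 184 in B6 of distinct reads.

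Reads that aligned to chromosome 1 alone were few in the copy, and in B2 nearly all of them, 29 of 31, lay at 1 spot, whereas in B6 4 of 11 did. Along the copy the mirror between the 2 sequences shifted once by 1 base, by the same amount in both libraries, so that the chromosome 1 sequence has 1 base more. The shift fell between left ends 9797 and 9817 on chromosome M in B2 and between 9802 and 9821 in B6. Between them, 19 left ends in B2 and 18 in B6 had no read with 2 alignments. The mirrored left ends on chromosome 1 held 29 reads with 1 alignment in B2 (15 plus and 14 minus, at 20 distinct positions) and 4 in B6 (1 plus and 3 minus). The same left ends on chromosome M held 1 read with 1 alignment in B2 and 0 in B6.

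At the shift, reads with 1 alignment were thus placed on the chromosome 1 sequence and hardly at all on the chromosome M sequence of mm8. They came to 1.45 reads per left end in B2 and 0.211 in B6, which compares with 2.27 and 0.803 for reads with 2 alignments in the 500 bp on each side. The average over chromosome 1 was 0.00604 reads with 1 alignment per left end in B2 and 0.00108 in B6. Elsewhere in the copy, B2 had 2 reads with 1 alignment and B6 had 7. Reads that span the shift can align to the other sequence only with mismatches. B6 has 4 reads at the shift, so its value has a wide counting error. Whether these reads came from the chromosome 1 copy or from mitochondrial DNA that differs from the mm8 sequence at this base was not tested.

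**Figure D5:**
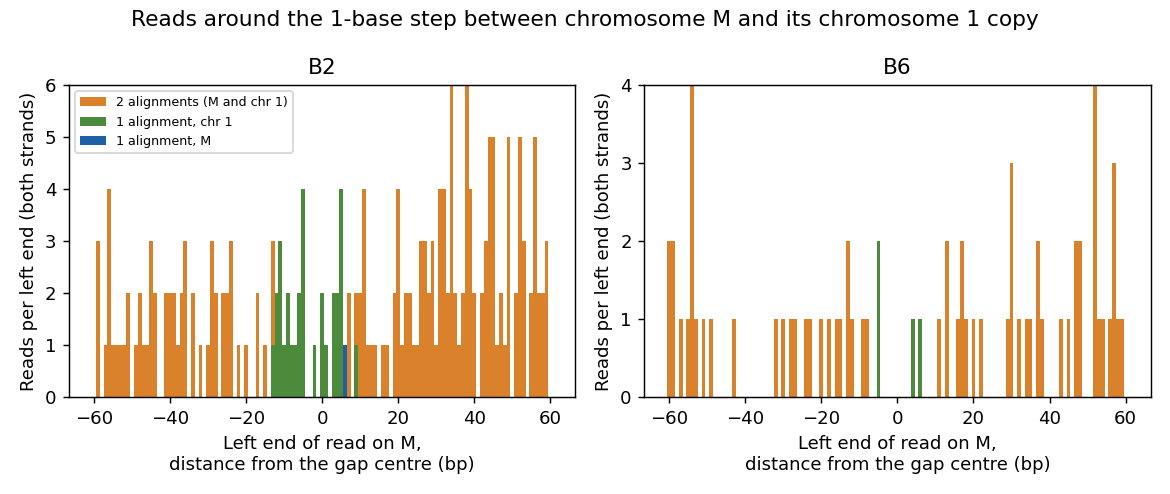
Reads per left end (y axis, both strands, bars overlaid) around the 1-base shift (x axis, distance in bp on chromosome M from the centre of the gap, averaged over the libraries; reads on chromosome 1 are mirrored) in B2 (left) and B6 (right). In the gap of 19 left ends in B2 and 18 in B6 the reads with 2 alignments (orange) are at 0, and reads with 1 alignment stand on chromosome 1 (green), with 1 on chromosome M (blue) in B2.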

How the data were processed

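The deposited files list alignments, 1 per line, as a signed position, a value other than a count, on mouse build mm8 per the file headers. The authors had aligned reads with Bowtie (version not given in the sources used here) with -e 70, -k 2, -m 2 and -n 2, and -l 36 for B2 or 26 for B6. Positions were read as 0-based leftmost bases and are printed 1-based. The 5′ end of a minus-strand read is its position plus the read length less 1. Correlations used log2 of RPM plus 0.5. Windows of 1 kb needed 10 reads. Bins were named by rank: the 5 highest and 5 lowest single-copy bins, the 5 highest with 2 alignments, and the 3 with the highest and lowest plus share. The members, bin classes, partner search and the other settings were chosen with earlier results of these data known, and the partner rule after the alignments had been seen. The search for constant offsets and the strand distance were tested on simulated reads, and the counting of reads in bins was not. Python 3.11.15, NumPy 2.4.6, SciPy 1.17.1, pandas 2.3.3 and matplotlib 3.10.9 were used. No mm8 sequence or annotation was used here, so no sequence is printed.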

Additional observations from a re-analysis of the deposited data

How the results depend on the processing

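The 2 libraries are 1 group without a control, so nothing here tests a condition. No paired analysis was possible because there is only 1 group, and its replicate numbers follow deposit order. The mean mitochondrial share was 0.151% ± 0.0703 (SD, n = 2) and became 0.284% with reads of 1 or 2 alignments. The plus share was 47.5% ± 1.28 and became 45.9% with all reads. Agreement (r = 0.94) became 0.97 in bins of 100 bp, 0.91 with a pseudocount of 0.1 and 0.73 in single-copy bins. Bins high in both libraries, 1 as reported, numbered 11 with all reads and 43 at 1.5-fold. They numbered 0 at 3-fold, with reads of 1 or 2 alignments, with bins moved by 25 bp, with leftmost positions, and in single-copy bins, by distinct ends or by all reads. For single-copy bins by distinct ends, the cap on distinct ends in B2 fixed this value. The exact mirror held for 83.0% of positions and became 99.9% within 1 or 2 bp. Windows past 2-fold fell from 100% to 53.8% with all reads. The strand distance on chromosome M was 29.5 bp and became 51.5 bp when distances under 40 bp were left out. The cause of these changes was not tested. The alternatives with single-copy bins were added after the data had been seen.

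With either library left out, the share ran from 0.102% to 0.201%, the plus share from 46.6% to 48.4%, high bins from 1 to 25 and bins without reads of 1 alignment from 4850 to 5400 bp. The exact mirror ran from 78.5% to 87.5%, the strand distance from 24 to 35 bp on chromosome M and from 88 to 100 bp on chromosome 19, occupied positions from 13.2% to 26.8%, and the density of the copy from 69.3 to 184 RPM per kb. Agreement and the ratio between the libraries need both.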
